A study of Homo sapiens with 24 samples.

Results

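The 10 genes described here are PLK1, AURKA, AURKB, BUB1, BIRC5, CENPF, TOP2A, KIF20A, CDC20 and TPX2, mitotic kinases and spindle or chromosome proteins. They were taken by name from a list, out of 25341 genes in the deposited table, and all 10 were among the 13416 genes tested, those with a mean of at least 1 TPM, a transcript abundance scaled for length and to a fixed library total. The study followed RNA labelled with bromouridine (BrU), a uridine analogue that is built into new transcripts, through a chase without label. U2OS cells, a human osteosarcoma line, carried a Tet-off switch for TOB2-S254D, a mutant of the antiproliferative protein TOB2 that imitates its phosphorylated form. In the induced arm doxycycline was left out, so the mutant was made. In the uninduced arm doxycycline was added, which means that drug and transgene differ at once. Both arms were of the same custom stable line, and the labels do not say whether it was a single clone. Cytoplasmic RNA was collected at 0, 0.5, 1, 2, 4 and 6 h of chase, the BrU-labelled part was recovered with an antibody, and each arm and time had 2 libraries, 24 in all.

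Mitosis is driven by kinases such as PLK1, the aurora kinases and the checkpoint kinase BUB1. They act on centrosomes, kinetochores and spindle microtubules until CDC20 switches on the anaphase-promoting complex and the sister chromatids part. Cells make the mRNAs of these genes mostly in late S and G2 phase, from promoters that often carry a CCAAT box, bound by NF-Y, and a cell cycle homology region with the core TTTGAA. TOB2 is a BTG/TOB protein, a family that recruits the CCR4-NOT deadenylase, and the series asked how mRNA decay changed when the mutant was expressed.

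Promoter windows of 300 bases around the start, from RefSeq on GRCh38.p14, were matched for 7 of the 10 genes: PLK1, AURKB, BUB1, CENPF, TOP2A, KIF20A and CDC20. The 4 windows below belong to the genes that, among those matched, changed most (PLK1 and CENPF) and least (TOP2A and AURKB) along the induced chase. They are written 5′ to 3′ on the strand of the gene. Capitals mark CCAAT or its reverse complement ATTGG, and TTTGAA or its reverse complement TTCAAA, and no match overlapped another. The PLK1 window is chr16:23678639-23678938 on the plus strand, that of CENPF is chr1:214602945-214603244 on the plus strand, that of TOP2A is chr17:40417847-40418146 on the minus strand and that of AURKB is chr17:8210176-8210475 on the minus strand.
PLK1: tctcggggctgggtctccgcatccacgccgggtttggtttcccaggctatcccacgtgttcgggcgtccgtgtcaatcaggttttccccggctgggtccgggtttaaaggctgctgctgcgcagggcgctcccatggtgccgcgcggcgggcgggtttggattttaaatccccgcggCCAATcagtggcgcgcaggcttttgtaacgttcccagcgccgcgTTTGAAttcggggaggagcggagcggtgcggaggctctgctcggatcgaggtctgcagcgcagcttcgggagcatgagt
CENPF: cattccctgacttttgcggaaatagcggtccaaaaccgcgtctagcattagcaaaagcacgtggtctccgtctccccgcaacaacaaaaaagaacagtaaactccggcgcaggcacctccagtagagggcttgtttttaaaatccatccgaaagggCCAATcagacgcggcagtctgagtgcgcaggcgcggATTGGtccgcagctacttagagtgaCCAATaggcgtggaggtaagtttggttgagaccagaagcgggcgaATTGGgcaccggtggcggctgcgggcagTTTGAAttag
TOP2A: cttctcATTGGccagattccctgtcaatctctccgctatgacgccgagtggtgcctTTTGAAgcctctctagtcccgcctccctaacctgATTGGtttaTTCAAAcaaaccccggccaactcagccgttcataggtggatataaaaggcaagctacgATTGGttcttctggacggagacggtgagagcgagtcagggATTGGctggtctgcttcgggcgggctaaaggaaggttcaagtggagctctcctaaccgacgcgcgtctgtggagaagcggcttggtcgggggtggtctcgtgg
AURKB: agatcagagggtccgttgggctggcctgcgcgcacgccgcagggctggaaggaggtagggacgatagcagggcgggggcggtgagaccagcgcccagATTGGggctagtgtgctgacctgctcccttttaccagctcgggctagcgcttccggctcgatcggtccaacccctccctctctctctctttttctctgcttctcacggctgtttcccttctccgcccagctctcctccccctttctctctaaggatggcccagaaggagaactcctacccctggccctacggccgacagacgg

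CCAAT stood in the windows of all 7 matched genes on either strand, against 34.6% of the 34943 promoter windows in the table. TTTGAA stood in 4 of the 7 (PLK1, CENPF, TOP2A and CDC20), against 15.2% of all windows, and the same 4 genes held both motifs, against 5.92%. PLK1 had 1 match of each kind. CENPF had 4 CCAAT matches and 1 TTTGAA match, and TOP2A had 4 and 2. AURKB had 1 CCAAT match and no TTTGAA match in this window. Another AURKB start was listed, with a window of chr17:8210200-8210499 that is not printed and also had 1 CCAAT match and no TTTGAA match. BUB1 and KIF20A had 2 CCAAT matches each.

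TPM is a share of the labelled cytoplasmic RNA of a library, so a gene that rose became a larger part of that RNA, and a loss common to all RNAs cannot be seen. Labelled RNA that entered the cytoplasm during the chase cannot be told apart from slower loss, and fewer cells in a phase of the cycle cannot be told apart from less RNA per cell. TOB2 itself was at 499 to 725 TPM in the 12 induced libraries and at 92.3 to 267 TPM in the 12 uninduced libraries, with no overlap. Libraries held 12594 to 13757 genes at 1 TPM or more, and the sequencing depth was unknown. Of osteoblast markers, RUNX2 averaged 4.13 TPM, BGLAP 1.72 TPM and COL1A1 12.5 TPM, while SP7, ALPL, SPP1, COL1A2 and PTH1R averaged below 1 TPM and IBSP was at 0. The labels also call the cells epithelial: 3 of 10 epithelial genes reached 1 TPM, KRT8 and KRT18 at 828 and 1584 TPM, while EPCAM was at 0. Of mesenchymal genes 2 of 5 reached it (VIM and TGFBI), and of leukocyte genes 2 of 5 (LYZ at 29.7 TPM and CD14 at 1.19 TPM, with PTPRC at 0.149). The induced replicate 2 libraries at 0 and 0.5 h stood apart most. There the noncoding RNAs RMRP, MIR6723 and RPPH1 held 27.5% of TPM, against 19.3% to 22.6% in the other libraries of those times. Induced replicate 2 was also highest at 1 h (21.4%, against 16.1% to 19.4%), 2 h (16.8%, against 15.3% to 15.6%) and 4 h (12.3%, against 10.1% to 10.9%). In all libraries at 6 h these RNAs held 7.14% to 8.45%.

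All 10 mRNAs rose along the chase in both arms. The slope of log2(TPM + 1) per hour was positive and past an adjusted p of 0.05 for 10 of 10 genes in the induced arm, where 41.6% of all genes tested rose, and for 10 of 10 in the uninduced arm, where 42.8% rose. The median slope of the 10 was 0.17 in the induced and 0.15 in the uninduced arm, beside medians over all genes of 0.028 and 0.039. The largest adjusted p among the 10 was 0.014 in the induced arm and 0.00236 in the uninduced arm.

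PLK1, the polo-like kinase that promotes mitotic entry, centrosome maturation and cytokinesis, had the steepest slope. In the induced arm the 2 libraries of each time gave 24.3 and 19.3 TPM at 0 h, 29.5 and 27.6 at 0.5 h, 38.7 and 28.3 at 1 h, 72.0 and 71.8 at 2 h, 97.2 and 123 at 4 h, and 113 and 129 at 6 h. In the uninduced arm they gave 30.9 and 28.6 TPM at 0 h, 31.2 and 32.3 at 0.5 h, 45.6 and 32.1 at 1 h, 65.0 and 69.2 at 2 h, 81.7 and 107 at 4 h, and 117 and 110.5 at 6 h. Induced libraries were below both uninduced ones at 0 and 0.5 h and above both at 2 h, and the arms overlapped at 1, 4 and 6 h. The share of all genes that split in this way was not counted. No difference between the arms is read from such splits, here or for the genes below. Mean TPM was 5.55-fold higher at 6 h than at 0 h in the induced arm and 3.83-fold in the uninduced arm. The slope was 0.42 ± 0.043 (SE) log2 per hour in the induced arm and 0.34 ± 0.043 in the uninduced arm, with adjusted p of 7.1e-09 and 3.07e-07. PLK1 stood at percentile 99.9 of all genes' slopes in the induced arm and 99.5 in the uninduced arm.

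**Figure D1:**
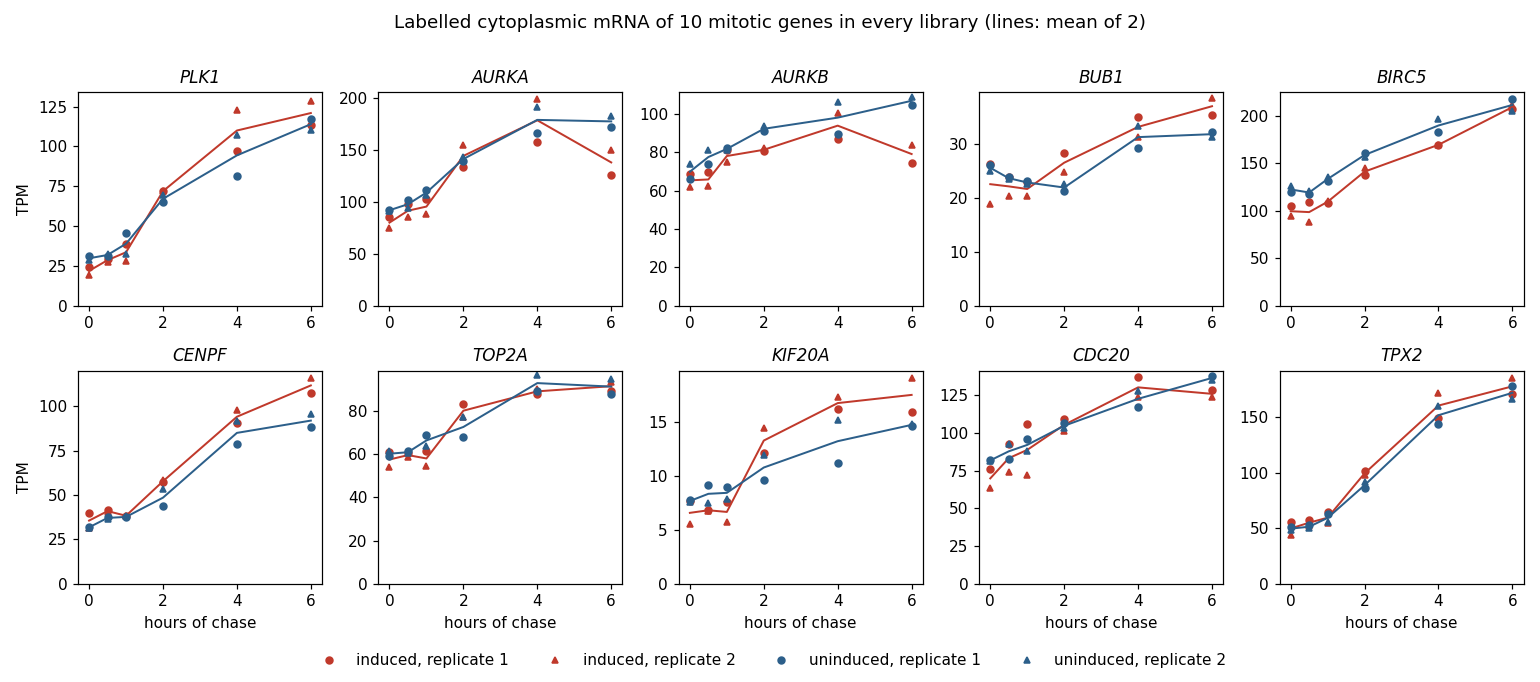
TPM (vertical axis, from 0) against hours of chase for each of the 10 genes, with induced libraries in red and uninduced libraries in blue, circles for replicate 1, triangles for replicate 2 and lines through the means of 2. All 10 genes end higher than they begin in both arms, and AURKA and AURKB have lower induced than uninduced values at 6 h.

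The aurora kinases had shallower slopes. AURKA, which works at centrosomes and spindle poles and is activated there by TPX2, had 85.0 and 74.5 TPM at 0 h, 158 and 199 at 4 h, and 125 and 149.9 at 6 h in the induced arm. In the uninduced arm AURKA had 92.2 and 91.2 TPM at 0 h, 166 and 191 at 4 h, and 172 and 182 at 6 h. Both induced libraries were thus below both uninduced ones at 0 and 6 h, and the arms overlapped at 4 h. Its slope was 0.15 ± 0.032 in the induced arm and 0.17 ± 0.032 in the uninduced arm, with adjusted p of 0.000193 and 5.77e-05. AURKB, the kinase of the chromosomal passenger complex, had 68.5 and 62.1 TPM at 0 h and 74.3 and 83.8 at 6 h in the induced arm, against 65.9 and 73.8 at 0 h and 105 and 109 at 6 h in the uninduced arm. Its slope of 0.056 ± 0.020 in the induced arm (adjusted p = 0.014) and 0.092 ± 0.020 in the uninduced arm (adjusted p = 0.000257) was the lowest of the 10 in the induced arm. The induced call of AURKB did not hold without the replicate 2 induced libraries at 0 and 0.5 h (slope 0.036, adjusted p = 0.12), and the value was -0.010 after quantile normalization and -0.0025 over protein-coding transcripts only.

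BUB1, the checkpoint kinase of the kinetochore, lay at 18.9 to 28.3 TPM in all libraries up to 2 h and above 29 TPM in all later ones. Induced libraries had 26.2 and 18.9 TPM at 0 h, 28.3 and 24.8 at 2 h, and 35.5 and 38.6 at 6 h. Uninduced libraries had 26.2 and 25.1 TPM at 0 h, 21.4 and 22.5 at 2 h, and 32.3 and 31.4 at 6 h, so the induced values were above the uninduced ones at 2 and 6 h. The slope was 0.14 ± 0.021 in the induced arm and 0.077 ± 0.021 in the uninduced arm, the lowest of the 10 there, with adjusted p of 3.31e-06 and 0.00236. Without RMRP, MIR6723 and RPPH1 the uninduced slope of BUB1 was 0.039 and no longer past the threshold (adjusted p = 0.084). CDC20, the activator of the anaphase-promoting complex that the checkpoint restrains, had 76.4 and 63.4 TPM at 0 h and 128 and 124 at 6 h in the induced arm. Uninduced libraries had 82.3 and 81.4 TPM of CDC20 at 0 h and 138 and 135 at 6 h, above the induced ones at both times. Its slope was 0.14 ± 0.022 in the induced arm and 0.12 ± 0.022 in the uninduced arm, with adjusted p of 4.49e-06 and 3.41e-05.

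TPX2 and CENPF had the next steepest slopes after PLK1 in both arms. TPX2, the microtubule nucleator that also activates AURKA, had 55.6 and 43.9 TPM at 0 h and 170.4 and 185 at 6 h in the induced arm, against 51.2 and 48.0 at 0 h and 177 and 166 at 6 h in the uninduced arm. The arms overlapped at 5 of the 6 times, and the slopes were 0.33 ± 0.029 in each (adjusted p = 4.45e-10 induced and 1.06e-09 uninduced). CENPF, a large kinetochore and nuclear matrix protein that builds up in G2, had 39.6 and 31.6 TPM at 0 h and 108 and 116 at 6 h in the induced arm. Uninduced libraries had 32.2 and 31.4 TPM of CENPF at 0 h and 88.2 and 95.7 at 6 h. Its slope was 0.29 ± 0.023 in the induced arm and 0.27 ± 0.023 in the uninduced arm, with adjusted p of 8.27e-11 and 6.24e-10. TPX2 and CENPF stood at percentiles 99.2 and 98.0 of all slopes in the induced arm and 99.4 and 97.7 in the uninduced arm.

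The other spindle midzone and chromosome genes lay between. KIF20A, a kinesin of the central spindle that is needed for cytokinesis, had the lowest level, with 7.64 and 5.52 TPM at 0 h and 15.9 and 19.1 at 6 h in the induced arm, against 7.77 and 7.59 at 0 h and 14.6 and 14.8 at 6 h in the uninduced arm. Its slope was 0.25 ± 0.031 in the induced arm and 0.15 ± 0.031 in the uninduced arm, with adjusted p of 1.45e-07 and 0.000182. BIRC5 (survivin), the passenger complex subunit that brings AURKB to centromeres, had the highest mean level of the 10 at 0 and 6 h in both arms, with 105 and 94.3 TPM at 0 h and 207 and 212 at 6 h in the induced arm. Uninduced libraries had 119 and 126 TPM of BIRC5 at 0 h and 218 and 205 at 6 h. Its slope was 0.19 ± 0.015 in the induced arm and 0.14 ± 0.015 in the uninduced arm, with adjusted p of 1.98e-10 and 2.7e-08. TOP2A, the topoisomerase that untangles sister chromatids, had 61.0 and 54.1 TPM at 0 h and 89.5 and 93.6 at 6 h in the induced arm, and 59.2 and 61.4 at 0 h and 87.9 and 94.8 at 6 h in the uninduced arm. Its slope was 0.12 ± 0.018 in the induced arm and 0.11 ± 0.018 in the uninduced arm, with adjusted p of 1.66e-06 and 8.83e-06.

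**Figure D2:**
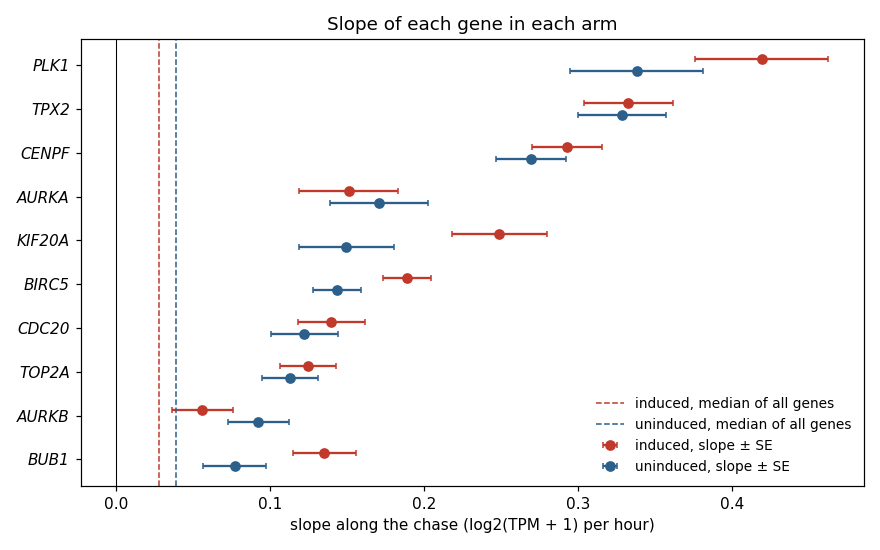
Slope of log2(TPM + 1) per hour (horizontal axis) for each gene, with the standard error as a bar, induced in red above uninduced in blue; dashed lines mark the median slope of all genes tested in each arm. PLK1, TPX2 and CENPF lie farthest right, and all 20 slopes lie right of their arm's median of 0.028 or 0.039.

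Falling shares of RMRP, MIR6723 and RPPH1 moved with these slopes, from 21.2% and 27.5% of TPM at 0 h to 7.55% and 7.14% at 6 h in the induced arm, and from 22.1% and 22.6% to 7.78% and 8.45% in the uninduced arm. Without these RNAs the median over all genes was -0.018 in the induced and 0.0016 in the uninduced arm, and 9 of the 10 genes still rose in each. After quantile normalization 9 rose in the induced arm and 7 in the uninduced arm, where AURKB, BUB1 and TOP2A missed the threshold. Of all genes called in slope, 44.7% (induced) and 51.8% (uninduced) rose without RMRP, MIR6723 and RPPH1. These shares were 59.3% and 60.2% after quantile normalization. Over the 37 alternatives, 3841 to 5980 genes rose in the induced arm and 4053 to 5899 in the uninduced arm. PLK1 rose in both arms under all 37 alternatives, with slopes of 0.36 to 0.59 in the induced arm and 0.26 to 0.44 in the uninduced arm. Without the replicate 2 induced libraries at 0 and 0.5 h, the induced slope was 0.38 for PLK1, 0.31 for TPX2, 0.28 for CENPF, 0.23 for KIF20A and 0.17 for BIRC5. It was 0.13 for AURKA, 0.12 for BUB1, 0.12 for TOP2A and 0.11 for CDC20, all of them past the threshold.

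The highest mean level was 15.1 times the lowest at 0 h and 11.9 times at 6 h in the induced arm, against 15.9 and 14.3 times in the uninduced arm. At 0 h the induced arm ran BIRC5 (mean 99.5 TPM), AURKA (79.8), CDC20 (69.9), AURKB (65.3), TOP2A (57.6), TPX2 (49.8), CENPF (35.6), BUB1 (22.6), PLK1 (21.8) and KIF20A (6.58), where the replicates of AURKA and CDC20, CDC20 and AURKB, TOP2A and TPX2, and BUB1 and PLK1 overlapped. The uninduced arm at 0 h had the same order except that PLK1 (29.7) came before BUB1 (25.6), and no neighbours overlapped. At 6 h the induced order was BIRC5 (209), TPX2 (178), AURKA (138), CDC20 (126.0), PLK1 (121), CENPF (112), TOP2A (91.6), AURKB (79.1), BUB1 (37.0) and KIF20A (17.5), and the replicates of AURKA, CDC20, PLK1 and CENPF overlapped from each to the next. The uninduced order at 6 h was BIRC5 (211), AURKA (177), TPX2 (172), CDC20 (136), PLK1 (114), AURKB (107), CENPF (92.0), TOP2A (91.4), BUB1 (31.9) and KIF20A (14.7), with overlaps between AURKA and TPX2 and between CENPF and TOP2A. The sum of the 10 genes was 508 TPM (0 h) and 1108 TPM (6 h) in the induced arm, against 570.5 and 1147 TPM in the uninduced arm.

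The rise was not even in time. Over the change from 0 to 2 h, 9 of 10 genes rose in the induced arm, where 23.1% of all genes did, and 6 of 10 in the uninduced arm, where 19.1% did. PLK1 rose by 1.68 ± 0.18 log2 units in the induced arm (adjusted p = 9.91e-06) and by 1.15 ± 0.18 in the uninduced arm (adjusted p = 0.000225), the largest early change of the 10 in each. TPX2 rose by 0.99 and 0.83, AURKA by 0.84 and 0.61, CENPF by 0.69 and 0.59, BIRC5 by 0.50 and 0.37, and AURKB by 0.31 and 0.40, in each case induced and then uninduced. KIF20A rose by 0.92, CDC20 by 0.59 and TOP2A by 0.47 in the induced arm, while their uninduced changes of 0.43, 0.35 and 0.26 had adjusted p of 0.090, 0.097 and 0.056. BUB1 passed in neither arm, at 0.24 ± 0.13 induced (adjusted p = 0.20) and -0.21 ± 0.13 uninduced (adjusted p = 0.29).

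Early calls depended on the scaling. The median over all genes was 0.18 in the induced and 0.14 in the uninduced arm; median-of-ratios scaling shifted it by -0.19 and -0.16, and quantile normalization by -0.16 and -0.13. Under quantile normalization 5 genes rose early in the induced arm and 2 in the uninduced arm, AURKB stood at -0.036 in the induced arm, and TOP2A at -0.068 in the uninduced arm. BUB1 fell early in the uninduced arm under both of these scalings (-0.42 and -0.39), without RMRP, MIR6723 and RPPH1 (-0.33) and over protein-coding transcripts only (-0.34). In the induced arm the calls of AURKB and CDC20 were lost without the replicate 2 library at 0 h (0.24, adjusted p = 0.25, and 0.46, adjusted p = 0.099) and without the replicate 1 library at 2 h (0.33, adjusted p = 0.13, and 0.54, adjusted p = 0.061), and that of AURKB also without the replicate 2 library at 2 h (0.30, adjusted p = 0.12). BUB1 was called higher without the replicate 1 induced library at 0 h (0.47, adjusted p = 0.016). Uninduced calls of AURKB and BIRC5 were lost without the replicate 1 library at 0 h (0.32 and 0.33, adjusted p of 0.11 and 0.062) or at 2 h (0.42 and 0.35, adjusted p of 0.057 and 0.063), and that of AURKB also without the replicate 2 library at 2 h (0.38, adjusted p = 0.084). Leaving out some libraries that do not enter an early change moved calls close to the threshold by its shared variance: AURKB induced reached an adjusted p of up to 0.052, while CDC20 and TOP2A uninduced reached 0.033 and 0.046.

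From 2 to 6 h, 5 of 10 genes rose in the induced arm, where 23.7% of all genes did, and 7 of 10 in the uninduced arm, where 24% did. CENPF rose by 0.94 ± 0.11 and 0.91 ± 0.11 (induced and then uninduced), TPX2 by 0.83 ± 0.12 and 0.95 ± 0.12, PLK1 by 0.74 ± 0.18 and 0.76 ± 0.18, BIRC5 by 0.56 ± 0.094 and 0.41 ± 0.094, and BUB1 by 0.47 ± 0.13 and 0.52 ± 0.13. CDC20 and TOP2A rose in the uninduced arm, by 0.38 (adjusted p = 0.0498) and 0.33 (adjusted p = 0.012), and stood at 0.26 (adjusted p = 0.16) and 0.19 (adjusted p = 0.11) in the induced arm. KIF20A stood at 0.37 and 0.42, with adjusted p of 0.092 and 0.067. The aurora kinases did not pass in either arm: AURKA stood at -0.065 induced (adjusted p = 0.70) and 0.33 uninduced (adjusted p = 0.052), and AURKB at -0.042 induced (adjusted p = 0.78) and 0.21 uninduced (adjusted p = 0.13). Mean AURKA at 6 h was 0.773 of its 4 h level in the induced arm and 0.992 in the uninduced arm, and mean AURKB was 0.842 and 1.09 of it.

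**Figure D3:**
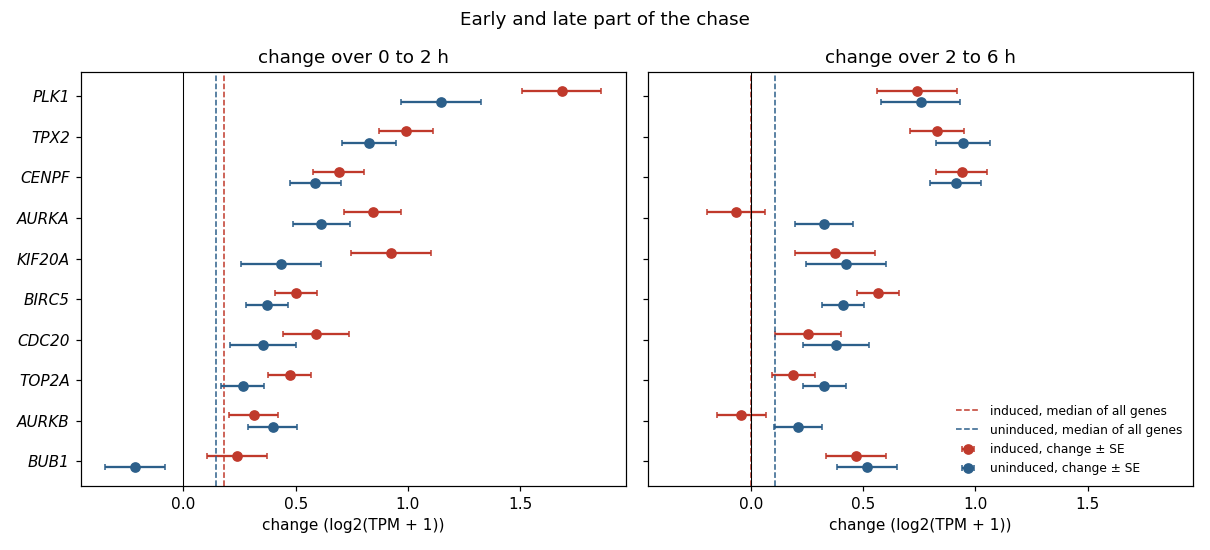
Change in log2(TPM + 1) over 0 to 2 h (left panel) and 2 to 6 h (right panel), with the standard error as a bar, induced in red above uninduced in blue; dashed lines mark the median over all genes. PLK1 has the largest early change in both arms, and the late induced changes of AURKA and AURKB lie below 0.

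Late calls also rested on single libraries. BUB1 was no longer called in the induced arm without the replicate 2 library at 2 h (0.38, adjusted p = 0.084) or at 6 h (0.41, adjusted p = 0.071), and the AURKA value turned to 0.063 without the replicate 1 library at 6 h and to 0.043 without the replicate 2 library at 2 h. AURKB in the induced arm turned to 0.044 without the replicate 1 library at 6 h. In the uninduced arm TOP2A was not called without the replicate 1 library at 2 h (0.24, adjusted p = 0.14) or the replicate 2 library at 6 h (0.27, adjusted p = 0.095), and CDC20 was lost on leaving out any of the 12 uninduced libraries or of the 6 induced libraries at 2, 4 and 6 h (0.35 to 0.40, adjusted p up to 0.17). AURKA in the uninduced arm passed on leaving out 1 of 6 induced libraries at 1, 4 or 6 h, with the same value of 0.33 and adjusted p down to 0.038. Without RMRP, MIR6723 and RPPH1 the late median over all genes shifted by -0.13 in the induced and -0.11 in the uninduced arm, and 5 of the 10 genes rose in each. Of all genes called late in that setting, 36.8% rose in the induced and 47.0% in the uninduced arm.

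No gene of the 10 differed between the arms in slope past the threshold, where 0.343% of all genes tested did. By limma 0 of 10 passed, 1 of 10 had an unadjusted p under 0.05, as did 1673 of 13416 genes, and 8 of 10 differences were positive, that is, steeper in the induced arm. The difference, induced minus uninduced, was 0.099 for KIF20A (95% interval 0.0094 to 0.19, adjusted p = 0.34), 0.081 for PLK1 (-0.044 to 0.21, adjusted p = 0.63), 0.058 for BUB1 (-0.0021 to 0.12, adjusted p = 0.43) and 0.045 for BIRC5 (adjusted p = 0.40). TPX2 had a difference of 0.0042, with an interval of -0.080 to 0.088. AURKB and AURKA had negative differences, -0.036 (-0.094 to 0.021) and -0.020 (-0.11 to 0.073). The median of the 10 was 0.021, beside -0.0094 over all genes. With single libraries left out it lay between 0.0070 (without the replicate 1 uninduced library at 6 h) and 0.040 (without the replicate 1 induced library at 6 h). It was 0.013 without the replicate 1 induced library at 4 h, 0.012 without the replicate 2 uninduced library at 6 h, 0.011 without the replicate 2 induced library at 0 h and 0.035 without that at 6 h. For PLK1, KIF20A, BUB1 and BIRC5 the slopes of both induced replicate series were above those of both uninduced ones. For AURKB both (0.024 and 0.088) were below them (0.091 and 0.093), and for the rest of the 10 the series overlapped. The share of all genes with such a split was not counted, so no difference between the arms is read from it. Without the replicate 2 induced libraries at 0 and 0.5 h the median was 0.0089, and the difference was 0.080 for KIF20A, 0.047 for PLK1, 0.042 for BUB1, 0.030 for BIRC5, -0.018 for TPX2, -0.056 for AURKB and -0.046 for AURKA, none of them past the threshold.

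None of the 10 genes passed for a difference between the arms in early or late change by the same test. With 2 libraries per group the 95% intervals were wide, so this does not show equal changes. They ran from -0.040 to 1.02 for the early difference of KIF20A and from -0.54 to 0.51 for the late difference of PLK1. For the early change limma called 0 of the 10 and 0% of all genes, with 2 of the 10 and 195 of all genes under an unadjusted p of 0.05. PLK1 had an early difference of 0.54 ± 0.25 and BUB1 of 0.46 ± 0.19, with unadjusted p of 0.047 and 0.028, adjusted p of 1 for both. Without the replicate 2 induced libraries at 0 and 0.5 h these differences were 0.38 and 0.23. For the late change 0 of the 10 passed, beside 0.365% of all genes, and 1 of 10 had an unadjusted p under 0.05, as did 1167 of 13416 genes. That gene was AURKA, with a late difference of -0.39 ± 0.18 (unadjusted p = 0.046, adjusted p = 0.55).

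Mean levels over the 6 times passed the threshold for 3 genes. BIRC5 and AURKB were lower in the induced arm, where 11.4% of all genes were lower, and CENPF was higher, where 14.3% were. In a set of 10 genes, 2 lower and 1 higher are close to these shares, so the counts do not set the 10 apart. BIRC5 had a mean difference, induced minus uninduced, of -0.20 ± 0.038 log2 units (adjusted p = 0.00123), and both induced libraries were below both uninduced ones at 5 of the 6 times. AURKB had -0.18 ± 0.044 (adjusted p = 0.0080) and was below at 4 of the 6 times. CENPF had 0.17 ± 0.046 (adjusted p = 0.016) and was above at 4 of the 6 times. These splits use the same libraries as the mean differences and were not counted over all genes, so they add no separate evidence. AURKA stood at -0.14 ± 0.052 (adjusted p = 0.059), and the other 6 genes lay between -0.069 and 0.064, with adjusted p of 0.36 or more. The median of the 10 was -0.049, beside 0.051 over all genes. It was -0.074 without the replicate 1 induced library at 1 h and -0.022 without that of replicate 2, -0.024 without the replicate 1 uninduced library at 1 h, and -0.029 without the replicate 2 uninduced library at 4 h or the replicate 2 induced library at 0 h. Without both replicate 2 induced libraries at 0 and 0.5 h it was -0.018. Of all genes called in mean level, 55.6% were higher in the induced arm, against 45.9% under median-of-ratios scaling, 65.8% without RMRP, MIR6723 and RPPH1, 67.7% over protein-coding transcripts only and 69.4% without those 2 induced libraries.

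BIRC5 and AURKB stayed lower under all 35 alternatives, at -0.24 to -0.16 and -0.22 to -0.15. CENPF lost its call under median-of-ratios scaling (0.13, adjusted p = 0.067), and AURKA gained one there (-0.18, adjusted p = 0.022) and without any of 6 single libraries (-0.17 to -0.16, adjusted p of 0.026 to 0.0497): the replicate 1 libraries at 4 h uninduced and at 0.5 and 1 h induced, and the replicate 2 libraries at 2, 4 and 6 h induced. Without the replicate 2 induced libraries at 0 and 0.5 h the mean differences were -0.16 for BIRC5 (adjusted p = 0.00195), -0.15 for AURKB (adjusted p = 0.022) and 0.19 for CENPF (adjusted p = 0.0055).

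At 0 h, when the chase began, 0 of the 10 genes differed by limma, beside 0.0298% of all genes, with 2 of the 10 and 881 of all genes under an unadjusted p of 0.05. The difference was negative for 9 of the 10, with a median of -0.20 beside 0.049 over all genes. That median was -0.33 without the replicate 1 and -0.016 without the replicate 2 induced library at 0 h. PLK1 stood at -0.44 ± 0.18 (adjusted p = 0.68) and BIRC5 at -0.30 ± 0.094 (adjusted p = 0.51). Without the replicate 2 induced libraries at 0 and 0.5 h these were -0.28 and -0.22, the median of the 10 was -0.016, and that over all genes was 0.17.

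At 6 h, a time chosen for this test after the data were seen, AURKB was the only gene of the 10 called by limma. Its difference was -0.43 ± 0.11 (adjusted p = 0.017). Of all genes, 8.04% were lower and 1.1% higher in the induced arm, so 1 lower of 10 is close to the share. AURKA stood at -0.37 ± 0.13 (adjusted p = 0.092) and CENPF at 0.28 ± 0.11 (adjusted p = 0.15). AURKA passed as well over protein-coding transcripts only (-0.38, adjusted p = 0.041) and without RMRP, MIR6723 and RPPH1 (-0.38, adjusted p = 0.046). The call of AURKB was lost without the replicate 1 induced library at 6 h (-0.35, adjusted p = 0.20), the replicate 1 uninduced library (-0.46, adjusted p = 0.082) or the replicate 2 uninduced library (-0.40, adjusted p = 0.10) of that time.

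**Figure D4:**
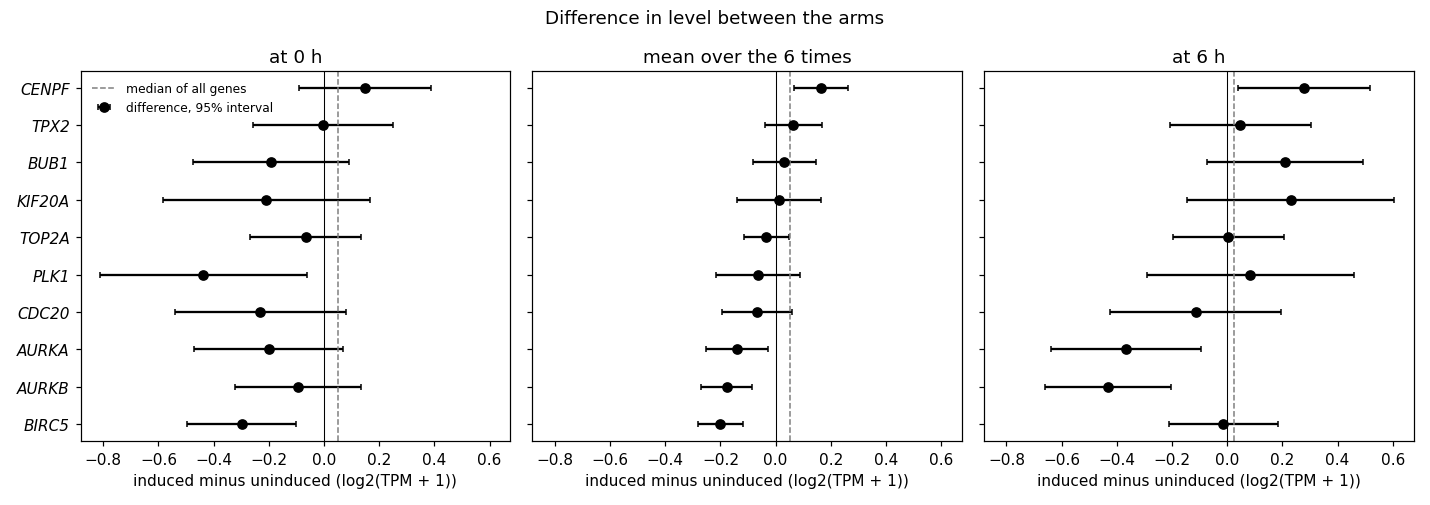
Difference in log2(TPM + 1), induced minus uninduced, at 0 h, as the mean over the 6 times and at 6 h, with 95% intervals as bars and the median of all genes as a dashed line. BIRC5 and AURKB lie left of 0 and CENPF right of 0 in the middle panel, and AURKB lies left of 0 at 6 h.

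Of the 10 genes, 6 had a single transcript in the table and AURKA, AURKB, BIRC5 and BUB1 had several, whose reads overlap. BIRC5 was spread over NM_001168, with 44.2% to 67.3% of its TPM, NM_001012270, with 31.9% to 55.8%, and a rare other form. Slopes of NM_001168 were 0.25 in the induced and 0.17 in the uninduced arm, and those of NM_001012270 were 0.10 in each. The split of AURKA was erratic: NM_198437 held 4.40% to 60.9%, and NM_198434 and NM_198435 were listed at 0 in 14 and 13 of 24 libraries. AURKB was divided between NM_001256834, at 20.0% to 79.2%, and NM_004217, at 11.3% to 80.0%. BUB1 was mostly NM_004336, at 62.6% to 100% of its TPM.

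The 10 time courses were much alike, though this was true of many genes. Over the 12 means of arm and time, the Pearson correlation of each gene with the mean of the other 9 was 0.991 for PLK1, 0.988 for TOP2A, 0.987 for TPX2, 0.870 for BUB1 and 0.797 for AURKB, the lowest. These points share their libraries and the TPM scale. Among 10375 other genes with at least 5 TPM, 28% correlated above 0.9 with the mean of the 10. The 10 most alike were TBC1D14 (0.995), SHCBP1 (0.994), DNAJA3, KHSRP, STARD7, NMT1, CDC123, LSM14A, PDCD10 and SETD7 (0.992).

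Other genes of mitosis moved mostly the same way. Of 114 genes in 8 groups of related function, 113 were tested (CDC25C, the phosphatase that activates CDK1, averaged 0.287 TPM). Induced, 85 rose and 10 fell, with a median slope of 0.12, where 41.6% of all genes rose and 29% fell. Uninduced, 82 rose and 8 fell, with a median of 0.099, where 42.8% of all genes rose and 22.3% fell. The highest share that rose was among the condensins and chromosome structure genes, where 10 of 11 rose in the induced and 11 of 11 in the uninduced arm and none fell. SMC2, a condensin ATPase, had slopes of 0.31 and 0.29, in this order of the arms.

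Among mitotic kinesins 9 of 12 rose in the induced and 8 of 12 in the uninduced arm, including KIF22 (0.36 and 0.29) and KIF23 (0.26 and 0.25), the motor of centralspindlin. RACGAP1, its partner, had 0.32 and 0.30, and PRC1, which bundles midzone microtubules, had 0.30 and 0.28, in a group of passenger and cytokinesis genes of which 7 of 8 and 6 of 8 rose. Of spindle assembly genes 15 of 18 rose and 1 fell in the induced arm, and 16 rose in the uninduced arm. In the group of the anaphase-promoting complex and separase 13 of 18 rose and 2 fell in the induced arm, and 12 rose and 1 fell in the uninduced arm. UBE2C, the ubiquitin-conjugating enzyme of that complex, had 0.24 and 0.19, and PTTG1 (securin), its target, had 0.26 and 0.17.

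Of mitotic entry and transcription genes 5 of 10 rose and 1 fell in the induced arm, near the 41.6% of all genes that rose. In the uninduced arm 7 rose and 1 fell, where 42.8% of all genes rose. FOXM1, the factor that drives G2 and M phase genes, had slopes of 0.37 and 0.33. Among spindle checkpoint and kinetochore genes 16 of 22 rose and 2 fell in the induced arm, and 14 rose and 2 fell in the uninduced arm. BUB3, the partner of BUB1, had slopes of 0.30 and 0.28.

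The other mitotic kinases were the least uniform. In the induced arm 10 of 14 rose and 4 fell, where 41.6% of all genes rose and 29% fell. In the uninduced arm 8 rose and 4 fell, where 42.8% of all genes rose and 22.3% fell. The falls were thus close to the shares of all genes. GSG2 (haspin), which phosphorylates histone H3 at centromeres and so helps to place the passenger complex, had slopes of -0.59 and -0.48 (adjusted p = 4.92e-14 and 3.8e-12). Its means at 0 and 6 h were 137 and 12.6 TPM in the induced arm, against 174 and 24.1 TPM in the uninduced arm. GSG2 has no introns and lies within an intron of ITGAE, so its value may hold reads of that gene. MIS12, a kinetochore subunit, had slopes of -0.45 and -0.37 (adjusted p = 7.23e-13 and 4.62e-11). Both also had lower mean levels in the induced arm, by a mean difference of -0.58 for GSG2 (adjusted p = 4.07e-07) and -0.33 for MIS12 (adjusted p = 0.00106). None of the 113 genes passed for a slope difference by limma, 8 had an unadjusted p under 0.05, as did 1673 of the 13416 genes tested, and the median was 0.016. In mean level 8 were higher and 17 lower in the induced arm, where 14.3% and 11.4% of all genes were.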

How the data were processed

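BrU-labelled cytoplasmic RNA was sequenced in 24 libraries. The deposited values are TPM per RefSeq transcript with 2 decimals, and per the submitters' processing notes RSEM 1.3.0, Bowtie2, Trim Galore and hg19 were used, in roles not given. Values of the 48009 transcripts (3 without a symbol) were added up per gene symbol. Depth was unknown, so no counting error can be given. Genes averaging 1 TPM or more were modelled on log2(TPM + 1) with limma 3.58.1 (R 4.3.3, with the package data.table at 1.17.8), with trended moderated variances: a line on hours in each arm (20 residual degrees of freedom), and a mean per arm and time (12). Tests were two-sided, with Benjamini-Hochberg adjustment over 13416 genes and a threshold of 0.05. The code was tested on simulated data. Plots used matplotlib 3.10.9 in Python 3.11.15.

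The 10 genes and the gene lists were chosen with earlier results of these data known. All 10 were named, with TOB2 and, of each list, up to 2 genes each with the smallest p for slope difference and uninduced slope, of which not all are printed. The labels do not say that replicates came from separate cultures, so the spread between libraries may be technical. For the group means the p-values measure that spread. For the slopes they also take in departures of the group means from a straight line. Alternatives covered the pseudocount, filter, scaling, transcripts (the most abundant for each gene), a replicate term, the variance trend, a shorter chase and leaving out each library. The test at 6 h and leaving out both replicate 2 induced libraries at 0 and 0.5 h were chosen after seeing the data.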

Additional observations from a re-analysis of the deposited data

Results flagged for a closer look

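Among TOB2 and the mitotic genes tested here, only TOB2 had a change along the chase that differed between the arms past the threshold. Other genes named, such as the cell type markers, the noncoding RNAs and the genes with similar time courses, were not looked up for this difference. The slope difference of TOB2, induced minus uninduced, was 0.22 log2 units per hour (adjusted p = 0.0081), and the difference in its change from 2 to 6 h was 1.28 (adjusted p = 0.028). Induced libraries had 711 and 576 TPM at 6 h, against 105 and 92.3 TPM in uninduced libraries. TOB2 reads cannot be divided here between the transgene and the cell's own gene. The slope difference lost its call without the replicate 1 induced library at 6 h (0.21, adjusted p = 0.068) and over a chase of 0 to 4 h (0.14, adjusted p = 0.63). Groups of 2 libraries are too small for a search for outlying samples.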

How the results depend on the processing

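Of 935 values of single genes under alternatives other than leaving out a single library, 864 kept direction and call, 45 lost the call, 16 gained it and 10 turned in sign; the cause was not tested unless stated. With each library left out in turn, 1847 of 1920 kept both. Turned in sign were AURKB induced slope under quantile normalization (-0.010) and over protein-coding transcripts (-0.0025), its early induced change under quantile normalization (-0.036), the early uninduced change of TOP2A there (-0.068), the slope difference over 0 to 4 h for AURKB (0.017) and AURKA (0.048), that of AURKA over transcripts (0.023), and that of TPX2 without the 3 noncoding RNAs (-0.0054), over protein-coding transcripts (-0.0091) and without both replicate 2 induced libraries (-0.018). Leaving out single libraries gave slope differences of -0.043 to 0.028 for AURKA and -0.023 to 0.036 for TPX2, and late induced changes of -0.19 to 0.063 for AURKA and -0.13 to 0.044 for AURKB.

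Counts of the 10 genes moved for the mean difference (0 higher under median-of-ratios scaling), the early induced change (5 under quantile normalization), the early uninduced change (2 under quantile normalization, and 1 lower there, under median-of-ratios scaling, without the 3 noncoding RNAs and over protein-coding transcripts), and the 6 h difference (2 lower in the last pair of settings, 0 or 1 with a library left out).

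The number of all genes that differed in slope, 46, became 88 and 25 with a pseudocount of 0.1 and 5, 30 with no filter, 84 with a filter of 5 TPM, 179 under quantile normalization, 328 without the 3 noncoding RNAs, 400 over protein-coding transcripts, 0 over 0 to 4 h, 7 over transcripts, 328 without both induced libraries, and 8 to 164 without a single library. In the late difference, 49 genes became 30 with a pseudocount of 5, 3 under median-of-ratios scaling, 207 and 234 without noncoding RNAs and over protein-coding transcripts, 10 with no variance trend, 113 without both induced libraries, and 1 to 79 without a single library. At 0 h, 4 genes became 7, 8, 10 and 2 under quantile normalization, without the noncoding RNAs, over protein-coding transcripts and with no variance trend, and 0 to 5 without a single library. In the early difference, 0 became 2 with no filter, 1 without both induced libraries, and 0 to 1 without a single library. Genes that rose early in the uninduced arm numbered 1449 and 1592 under quantile and median-of-ratios scaling and 1458 to 2738 without a library. In the induced arm they numbered 1806, 1802, 1905 over protein-coding transcripts, 1491 without both induced libraries and 1327 to 3551 without a library. Late rises with a library left out numbered 1919 to 3285 induced and 1998 to 3343 uninduced, and 491 to 1316 genes differed at 6 h. Of genes called along the chase, 58.9% in the induced and 65.8% in the uninduced arm rose, against 44.7% and 51.8% without the noncoding RNAs. For the early change these were 83.2% and 83.5%, against 54.5% and 55.2% under quantile normalization, and for the late change 49.7% and 60.3%, against 36.8% and 47.0% without the noncoding RNAs.

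With a replicate block, the slope difference had 99 genes, the late difference 179, the 0 h difference 11 and the 6 h difference 1870. All 10 genes rose in both arms there, and calls were gained by AURKA for the mean difference (-0.14, adjusted p = 0.045) and the late uninduced change (0.33, adjusted p = 0.043), and by CDC20 (0.35, adjusted p = 0.0497) and TOP2A (0.26, adjusted p = 0.037) for the early uninduced change. Deviations of same-numbered libraries correlated at 0.020 to 0.156 over the 6 times, all positive and above 0.1 at 3 of them. This does not settle whether the numbers pair the libraries, and the main fit held no replicate term.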
